A study of Mus musculus with 38 samples.

Results

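The Hox cluster genes of mouse were taken as every row whose symbol is Hoxa, Hoxb, Hoxc or Hoxd followed by a number, in the gene tables of an RNA-seq and ATAC-seq series on Tcf21 lineage cells of visceral adipose tissue. The rule found 39 of 25746 genes, of which 11 lie in HoxA (chr6:52155590-52260880), 10 in HoxB (chr11:96194316-96368256), 9 in HoxC (chr15:102921103-103036852) and 9 in HoxD (chr2:74668310-74765142), in the mm10 build. No measured value entered the choice. The question of the series, by its title, is how Tcf21, a basic helix-loop-helix transcription factor of mesenchymal cells, acts in the development of visceral fat. Hox levels were followed over age, high-fat feeding and Tcf21 status in 29 RNA-seq libraries, and chromatin over the clusters in 9 ATAC-seq libraries.

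Hox genes encode homeodomain transcription factors that give cells their position along the head-to-tail axis of the embryo. They stand in 4 clusters in which all genes point the same way, and members with low numbers, at the 3′ end, are switched on early and towards the head, whereas members with high numbers, at the 5′ end, are switched on late and towards the tail. Members with the same number in different clusters, called paralogs, are close relatives. Adult fibroblasts and fat cell precursors keep much of the Hox pattern of the place they came from, and fat depots differ in it. Polycomb proteins keep silent members closed, Trithorax proteins keep active members open, and TALE proteins such as Pbx and Meis bind DNA together with Hox proteins.

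Each library came from 5000 cells sorted by flow cytometry, from mice given tamoxifen to switch on MerCreMer, a Cre recombinase that is active only in its presence. The titles give wild type (WT) at postnatal day 12 (P12, 2 RNA libraries), at 3 weeks of age (3W, 7 RNA and 3 ATAC libraries) and at 6 months (6M, 2 RNA libraries). Titles of these groups name no high-fat diet, and 6M is called regular diet here. The titles also give WT after 1 week (4 RNA and 2 ATAC libraries) and after 12 weeks (5 RNA and 2 ATAC libraries) of high-fat diet (HFD), which was started when the mice were 6 weeks old. Tcf21 knockout (KO) was sampled at 3W (5 RNA and 2 ATAC libraries), at 1W HFD (2 RNA libraries) and at 12W HFD (2 RNA libraries). The labels name neither the gene that drives MerCreMer nor the stretch of Tcf21 that is deleted, nor whether animals were pooled. The p-values measure the spread between libraries, which nothing in the labels ties to separate animals. In the labels, a separate genotype entry is the same as the title for 16 of 38 samples and contradicts it for 22, among them all KO libraries, both WT P12 libraries, all WT 1W HFD RNA libraries and some of WT 3W and WT 12W HFD. Groups follow the titles.

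Tcf21 itself was checked first. At 3W the KO libraries had 35.2 ± 18.3 TPM (SD, n = 5; range 20.0 to 60.9) and the WT libraries 64.9 ± 27.0 TPM (SD, n = 7; range 37.6 to 109.2), with an exact two-sided permutation p of 0.0341. The ranges overlap, and Tcf21 RNA was present in every KO library. The titles pair KO and WT libraries at 3W, and this test did not use the pairs. KO replicates 1 to 5 had 20.0, 60.9, 21.9, 48.2 and 25.1 TPM. Their WT pair mates had 37.6, 109.2, 46.2 and 47.6 (both for KO replicate 3), 83.8 and 47.0 TPM. Tcf21 was thus lower in KO within every named pair. At 1W HFD Tcf21 was at 8.1 and 16.5 TPM in KO and 11.3 to 47.4 TPM in WT, with overlap (exact two-sided permutation p = 0.4667, where the smallest possible is 0.0667). At 12W HFD it was at 1.64 and 5.67 TPM in KO and 5.86 to 13.5 TPM in WT, without overlap (exact two-sided permutation p = 0.0476, the smallest possible). TPM is a read share scaled by transcript length, so that levels of different genes can be set side by side. Columns summed to between 918008 and 969385 TPM, and 10894 to 12825 genes reached 1 TPM per library. The read depth behind these values is unknown. All 10 markers of the stromal lineage were detected in every library, at a summed 23240 to 45030 TPM. Markers of other cells were present too: the 10 macrophage markers summed to 55 to 120.8 TPM in WT 3W, 1147 to 3398 TPM in WT 6M and 2171 to 4142 TPM in WT 12W HFD.

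WT P12 replicate 1 and WT 3W replicate 2 stood apart in their Hox levels. The first held 52.8% of its summed Hox TPM in paralog groups 9 to 13, against 9.7% in WT P12 replicate 2 and at most 17.3% in the other libraries. The second had the highest summed Hox level, 739.8 TPM, in a range over all 29 libraries of 220.5 to 739.8 TPM with a median of 325.9 TPM. Its column sum was the lowest of all. Its pair mate by the titles, KO 3W replicate 2, had the highest summed Hox level of the KO libraries, 481.8 TPM. Results without one of these libraries are given only where stated.

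The DNA just upstream of a few members is shown because these windows carry the open chromatin described further on and belong to members whose RNA differed between groups, with silent Hoxd12 for contrast. Each is the 250 bases before a RefSeq transcription start in GRCm38.p6, read 5′ to 3′ on the gene's own strand. Capitals mark a match to one of 3 motifs searched on both strands: CAGCTG (an E-box core, the kind of site that basic helix-loop-helix factors bind), TGATTNAT (a joint Hox and Pbx site) and TATAAA, the core promoter motif that binds the general transcription machinery. The Hoxa5 window is chr6:52204588-52204837 on the minus strand, Hoxa2 is chr6:52164832-52165081 on the minus strand, Hoxa7 is chr6:52218574-52218823 on the minus strand and lies inside the annotated gene, Hoxd8 is chr2:74704365-74704614 on the plus strand, and Hoxd12 is chr2:74674763-74675012 on the plus strand.
Hoxa5: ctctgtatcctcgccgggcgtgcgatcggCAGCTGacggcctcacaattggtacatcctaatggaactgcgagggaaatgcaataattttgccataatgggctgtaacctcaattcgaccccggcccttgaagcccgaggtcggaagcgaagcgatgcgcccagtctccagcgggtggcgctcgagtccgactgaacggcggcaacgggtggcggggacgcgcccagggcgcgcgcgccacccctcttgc
Hoxa2: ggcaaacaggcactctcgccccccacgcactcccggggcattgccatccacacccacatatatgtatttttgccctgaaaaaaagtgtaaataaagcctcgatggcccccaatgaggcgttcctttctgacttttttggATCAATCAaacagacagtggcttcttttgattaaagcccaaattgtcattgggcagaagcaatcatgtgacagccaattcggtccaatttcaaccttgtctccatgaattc
Hoxa7: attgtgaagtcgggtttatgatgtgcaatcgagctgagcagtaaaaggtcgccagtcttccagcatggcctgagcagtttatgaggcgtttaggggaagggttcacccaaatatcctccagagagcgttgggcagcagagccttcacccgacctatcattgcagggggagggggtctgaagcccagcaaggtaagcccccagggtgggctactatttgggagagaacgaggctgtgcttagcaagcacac
Hoxd8: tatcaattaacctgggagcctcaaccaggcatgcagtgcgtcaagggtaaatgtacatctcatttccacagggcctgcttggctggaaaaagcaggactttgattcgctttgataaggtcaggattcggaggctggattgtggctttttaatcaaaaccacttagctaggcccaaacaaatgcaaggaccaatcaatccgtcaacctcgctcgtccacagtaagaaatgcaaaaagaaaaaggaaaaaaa
Hoxd12: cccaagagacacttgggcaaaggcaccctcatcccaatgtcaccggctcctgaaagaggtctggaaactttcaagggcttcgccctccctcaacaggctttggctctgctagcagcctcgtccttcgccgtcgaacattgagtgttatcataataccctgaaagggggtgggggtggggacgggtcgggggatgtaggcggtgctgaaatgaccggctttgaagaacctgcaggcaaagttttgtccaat

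Windows were found for 22 of the 39 members, 24 windows in all. CAGCTG stood in 3 of them, those of Hoxa3, Hoxa5 and Hoxa6, and in 13% of 32851 windows over all genes. TGATTNAT stood in 2, those of Hoxa2 and Hoxd11, against 2.8% of all windows. TATAAA stood in 4, those of Hoxa10, Hoxb8, Hoxd4 and Hoxd13, against 12.4%. No window held more than 1 of the 3 motifs, so no matches of different motifs overlapped. The Hox windows held a median of 12.5 CpG dinucleotides and 58.6% G and C, against 6.0 and 52.4% for all windows. An ATAC peak touched the printed windows of Hoxa5, Hoxa2 and Hoxd8 in 9 of 9 libraries, that of Hoxa7 in 6 and that of Hoxd12 in 1.

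Levels differed widely between members, also between neighbours in a cluster. Averaged over 29 libraries, 9 members were at 10 TPM or more, 15 between 1 and 10 TPM and 15 under 1 TPM. Hoxc4 averaged 57.0 TPM, Hoxa7 54.9 TPM, Hoxc6 44.7 TPM and Hoxc8 41.5 TPM. Hoxc4 stands at the 3′ end of HoxC, which has no members with lower numbers. Hoxa4 at 1.27 TPM and Hoxa6 at 2.06 TPM lie on either side of Hoxa5. After the first 4 came Hoxa5 at 23.1 TPM, Hoxb2 at 18.9 TPM, Hoxc5 at 13.9 TPM, Hoxc9 at 13.8 TPM and Hoxb5 at 10.1 TPM. Neighbours in this order overlapped over the libraries, and Hoxc4, for one, ran from 10.2 to 150.6 TPM and Hoxa7 from 22.1 to 147.5 TPM. These averages weight large groups more. By the mean of the 8 group means Hoxa7 (51.7 TPM) stood above Hoxc4 (49.4 TPM), Hoxa10 (12.2 TPM) and Hoxb7 (10.4 TPM) were over 10 TPM, Hoxb5 (8.99 TPM) was under it, and Hoxa11 (1.22 TPM) was over 1 TPM. Paralog groups 4 to 8 held a median of 81.9% of the summed Hox TPM of a library, with a range of 36.6% to 89.7%. HoxC held a median of 50.5%, HoxA 28.8%, HoxB 15.1% and HoxD 3.8%.

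**Figure D1:**
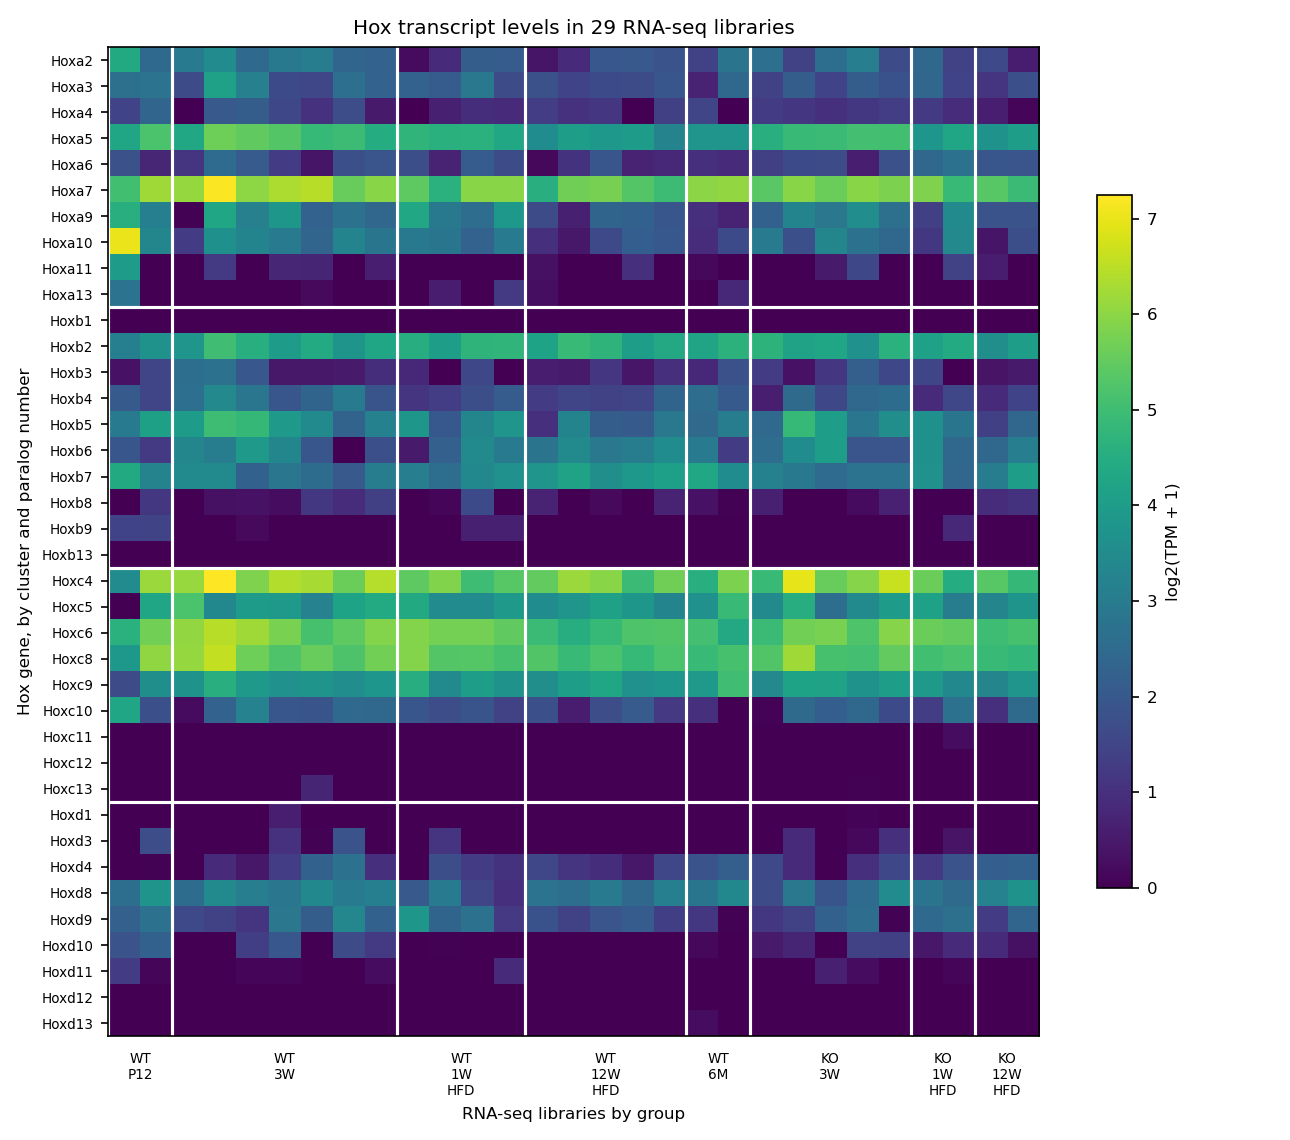
Level of 38 of the 39 Hox genes (rows, by cluster and number) in each of the 29 RNA-seq libraries (columns, by group), as log2(TPM + 1). The bright rows are Hoxa5, Hoxa7, Hoxb2, Hoxc4, Hoxc6 and Hoxc8, and the first column, WT P12 replicate 1, is bright at Hoxa10 (130.0 TPM) and dim at Hoxc4 (10.2 TPM).

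The step of a cluster was placed after the highest-numbered member with a mean of at least 1 TPM over the 29 libraries. The cut-off thus sets where it lies. In HoxA the highest-numbered member with a mean of at least 1 TPM was Hoxa10, which patterns the lower trunk and limb, at 9.11 TPM, and its neighbour Hoxa11 averaged 0.83 TPM and was listed at 0 in 17 libraries. Without WT P12 replicate 1, Hoxa10 ran from 0.33 to 11.5 TPM and Hoxa11 from 0 to 1.99 TPM. In HoxB the step lay between Hoxb7 at 9.54 TPM and Hoxb8 at 0.45 TPM, and Hoxb9 averaged 0.19 TPM. In HoxC it lay between Hoxc10 at 3.27 TPM and Hoxc11 at 0.006 TPM, with Hoxc11 above 0 in KO 1W HFD replicate 2 alone (0.17 TPM). In HoxD, whose highest member was Hoxd8 at 6.41 TPM, it lay between Hoxd9 at 3.49 TPM and Hoxd10 at 0.73 TPM. The WT P12 libraries did not show this step, with Hoxd9 at 3.62 and 5.62 TPM and Hoxd10 at 2.61 and 3.71 TPM. Hoxb1, Hoxb13, Hoxc12 and Hoxd12 were listed at 0 in all 29 libraries. Hoxd1, the lowest-numbered member of HoxD, was low as well, at 0.02 TPM.

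For the tests a gene had to reach 1 TPM in 2 or more libraries, which left 15659 genes and 30 of the 39 members. Hoxb1, Hoxb13, Hoxc11, Hoxc12, Hoxc13, Hoxd1, Hoxd11, Hoxd12 and Hoxd13 were not tested. Differences are on the log2(TPM + 1) scale with their standard error (SE), which understates the change of low genes, and p-values are from limma with Benjamini-Hochberg adjustment over all 15659 genes and a threshold of 0.05. All comparisons with WT 3W share those 7 libraries. Within a genotype, every comparison of an HFD group with another group also differs in age, so diet and age cannot be told apart.

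The most Hox genes differed between WT 12W HFD and WT 3W, a contrast in which diet and age cannot be told apart. Of the 30 members tested, 6 (20%) were called, 5 lower and Hoxb7 higher, where 14.2% of all genes tested were called (6.23% lower and 7.94% higher). Hoxa5, Hoxa7, Hoxc6, Hoxb5 and Hoxa2 fell. The median difference of the 30 members was -0.51 and that of all genes -0.04, and 25 of the 30 members had a negative difference, against 53% of all genes.

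Hoxa5, which in mice is needed for the lung and the neck skeleton and is expressed in fat cell precursors, is ENSMUSG00000038253 at chr6:52201754-52204587. It had 18.7, 48.9, 43.4, 38.6, 27.8, 30.5 and 21.6 TPM in WT 3W replicates 1 to 7, with a median of 30.5 TPM. In WT 12W HFD it had 10.6, 15.7, 13.6, 15.2 and 8.42 TPM. Every 12W HFD library was below every 3W library, a difference of -1.26 ± 0.23 (SE, adjusted p = 0.0001654). In WT 1W HFD it lay between, at 18.7 to 25.7 TPM, which overlapped 3W (-0.44 ± 0.24, adjusted p = 0.2988).

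Hoxc6, a trunk member of HoxC (ENSMUSG00000001661, chr15:102998257-103011881), had a lowest, median and highest level of 34, 59.3 and 88.2 TPM in WT 3W and of 29.6, 22, 27.8, 36.7 and 38.2 TPM in the 5 WT 12W HFD libraries. Of the 5, 2 lay within the 3W range, and the difference was -0.90 ± 0.23 (SE, adjusted p = 0.006035). Hoxa7, also a trunk member (ENSMUSG00000038236, chr6:52214491-52221854), had 46.0, 67.6 and 147.5 TPM (lowest, median, highest) in WT 3W and 22.1, 50.3, 52.7, 38.3 and 30.3 TPM in WT 12W HFD. The ranges overlapped, and the difference was -0.99 ± 0.28 (SE, adjusted p = 0.01256). Without WT 12W HFD replicate 1, which had the lowest Hoxa7, it was -0.82 and no longer called.

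Hoxb5 (ENSMUSG00000038700, chr11:96303336-96306121), which acts in vascular and enteric neural cells among others, had 3.99, 14 and 31.1 TPM (lowest, median, highest) in WT 3W and 1.00, 8.6, 3.38, 3.11 and 6.48 TPM in WT 12W HFD. The groups overlapped, with a difference of -1.54 ± 0.48 (SE, adjusted p = 0.02673). Hoxa2 (ENSMUSG00000014704, chr6:52162417-52164831), which patterns the hindbrain and the second pharyngeal arch, had 3.84, 6.58 and 10.2 TPM in WT 3W and 0.33, 0.82, 2.89, 3.03 and 2.62 TPM in WT 12W HFD. Every 12W HFD library was below every 3W library, with a difference of -1.37 ± 0.43 (SE, adjusted p = 0.03064). The Hoxb5 call held in 7 and the Hoxa2 call in 8 of the 12 fits that left out 1 library. In the same fits the Hoxa5 and Hoxc6 calls held in all 12 and the Hoxa7 call in 11. WT 3W replicate 2 had the highest WT 3W level of each of the 5 members that fell.

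Hoxb7 (ENSMUSG00000038721, chr11:96286623-96290162), a trunk member of HoxB, rose. It had 9.82, 9.97, 3.73, 6.14, 4.86, 3.03 and 7.24 TPM in WT 3W replicates 1 to 7 and 12.8, 17.2, 11, 13.6 and 16.0 TPM in WT 12W HFD. All 12W HFD libraries were above all 3W libraries, with a difference of 1.11 ± 0.31 (SE, adjusted p = 0.01243), and the call held in all 12 fits that left out 1 library. The ratio of Hoxb7 to Hoxa5 TPM within a library, which no scaling of the library can move, was 0.086 to 0.524 in WT 3W and 0.809 to 1.894 in WT 12W HFD. It was 0.161 to 0.366 in KO 3W and 0.633 to 0.978 in KO 12W HFD. High ratios were not confined to 12W HFD: the range was 0.832 to 1.489 in WT 6M and 0.233 to 1.079 in WT P12. In WT 1W HFD it was 0.22 to 0.621 and in KO 1W HFD 0.237 to 0.889. This ratio was chosen with its values in view and is a description.

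**Figure D2:**
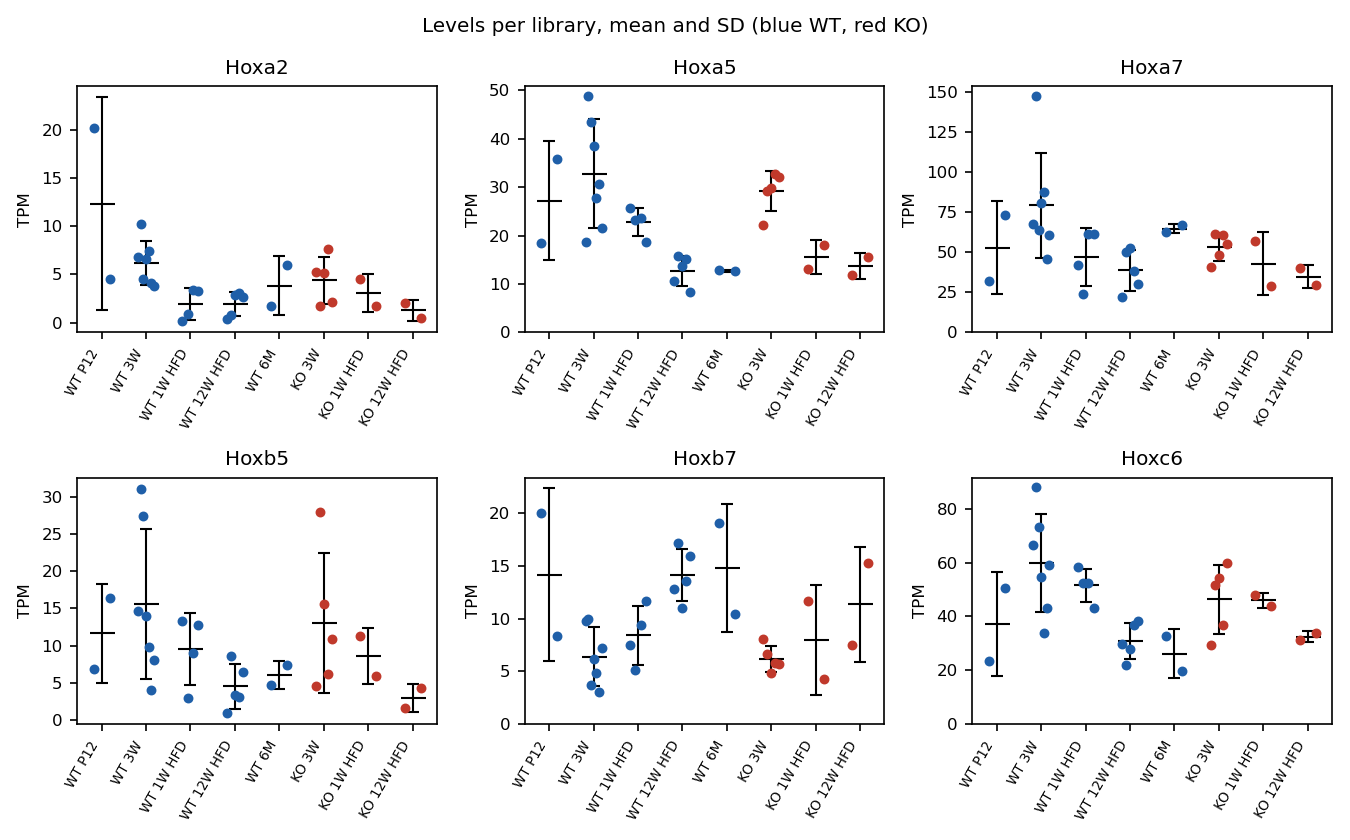
TPM of the 6 Hox genes called between WT 12W HFD and WT 3W, by group. Points are libraries (blue WT, red KO) and black bars the mean and SD. Hoxa5 at WT 12W HFD (8.42 to 15.7 TPM) lies wholly below WT 3W (18.7 to 48.9 TPM), and Hoxb7 (11 to 17.2 TPM) wholly above it (3.03 to 9.97 TPM).

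**Figure D3:**
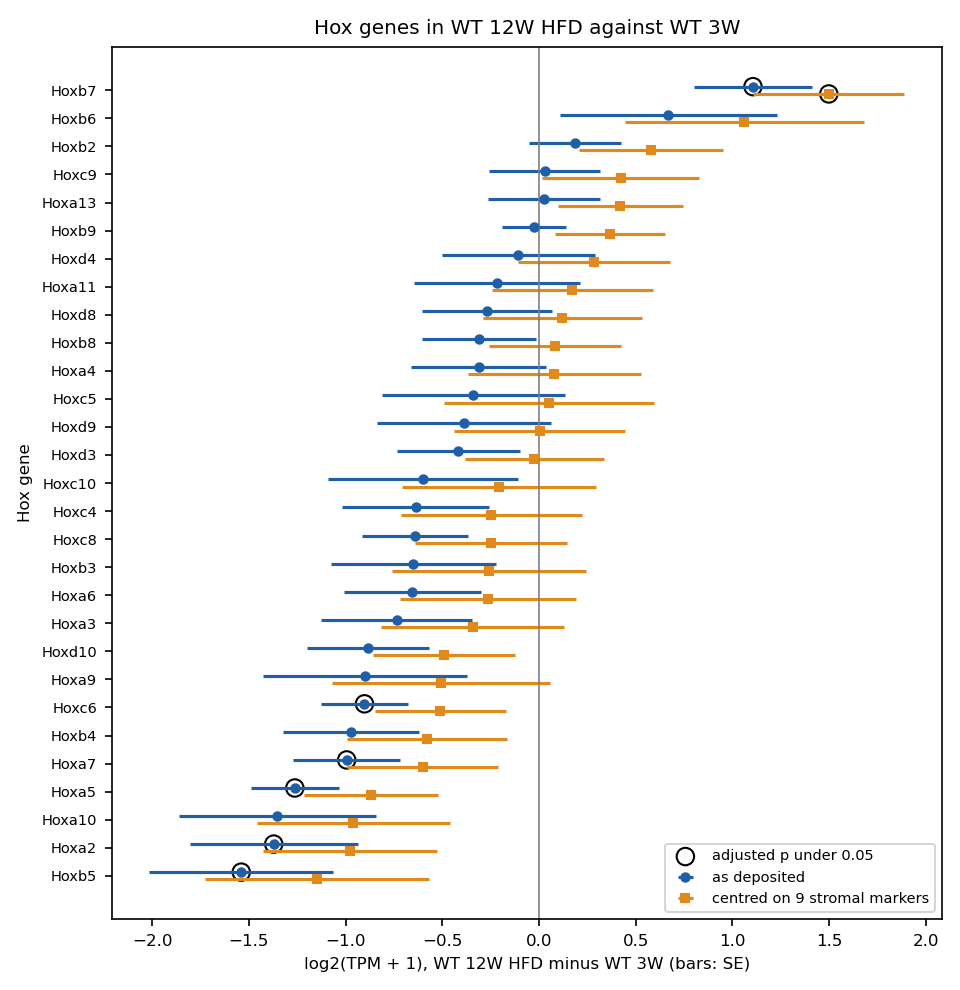
Difference between WT 12W HFD and WT 3W in log2(TPM + 1) for 29 of the 30 tested Hox genes, with SE bars, on the values as deposited (circles) and after each library was centred on 9 stromal markers (squares). Rings mark an adjusted p under 0.05: 6 genes as deposited, and Hoxb7 alone after centring.

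Marker levels of other cells also differed between these groups, and the calls depended on the scaling. In WT 12W HFD the summed macrophage markers were 2171 to 4142 TPM against 55 to 120.8 TPM in WT 3W, the 7 lymphocyte markers 21.9 to 130.9 against 0.22 to 4.66 TPM, and the stromal markers 23240 to 27270 against 25720 to 45030 TPM. The 5 adipocyte markers summed to 45.6 to 157.2 TPM in WT 12W HFD against 195.2 to 6929 TPM in WT 3W, without overlap. The 6 erythroid markers summed to 41700 and 19450 TPM in WT 12W HFD replicates 2 and 3, to 3614 to 4165 TPM in the other 3 and to 1116 to 9489 TPM in WT 3W. The part of these cells in the Hox differences was not tested, and fewer cells of a type and less RNA per cell cannot be told apart in bulk libraries. When each library was centred on the mean of 9 stromal markers (the 10 without Tcf21), the median of all genes moved from -0.04 to 0.36, and the split of all called genes went from 56% to 87.1% higher. Hoxb7 was then the 1 member called (1.5 ± 0.39, adjusted p = 0.006499). The differences of Hoxa5, Hoxa7, Hoxc6, Hoxb5 and Hoxa2 stayed negative, from -1.15 to -0.51, and were not called. Of the 30 members 14 were positive and 16 negative after centring, with a median of -0.12, below the shifted median of all genes.

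Ageing on regular diet gave 2 called members. Between WT 6M and WT 3W, Hoxa5 and Hoxc6 fell, 2 of 30 (6.67%) where 10.8% of all genes were called and 6.85% were lower. The share of Hox genes that were lower was thus near the background. Hoxa5 had 12.8 and 12.6 TPM in the 6M libraries and Hoxc6 32.5 and 19.6 TPM, all below the lowest 3W library of the same gene. The differences were -1.23 ± 0.31 (SE, adjusted p = 0.01011) for Hoxa5 and -1.15 ± 0.31 (SE, adjusted p = 0.016) for Hoxc6. Hoxb7, at 19.1 and 10.5 TPM, was above every 3W library but not called (1.13 ± 0.42, adjusted p = 0.08005). After centring on stromal markers neither Hoxa5 (-0.70) nor Hoxc6 (-0.62) was called, and the median of all genes went from -0.24 to 0.29. The macrophage markers summed to 1147 and 3398 TPM in these 2 libraries and the lymphocyte markers to 15.4 and 88.9 TPM, all above WT 3W, and their part was not tested.

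Between WT 12W HFD and WT 6M no member was called (0.881% of all genes were), and none had an unadjusted p under 0.05, against 2189 of all genes. Hoxa5 differed by -0.03 ± 0.32 and Hoxb7 by -0.02 ± 0.44 (SE). With errors of this size the 2 groups are not shown to be equal.

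After 1 week of HFD, Hoxd8 and Hoxa2 were lower than in WT 3W, 2 of 30 (6.67%) where 8.03% of all genes were called and 3.25% were lower. Diet and age cannot be told apart in this contrast either. Hoxa2 had 0.15, 0.85, 3.37 and 3.27 TPM in WT 1W HFD, each below the lowest 3W library (3.84 TPM), a difference of -1.46 ± 0.46 (SE, adjusted p = 0.04836). Hoxd8, a trunk member of HoxD, had 3.08, 6.89, 1.85 and 1.00 TPM against 4.91 to 9.92 TPM, with 1 library inside the 3W range, a difference of -1.18 ± 0.36 (SE, adjusted p = 0.03962). The macrophage markers summed to 256.1 to 412.4 TPM in WT 1W HFD against 55 to 120.8 TPM in WT 3W and the endothelial markers to 81.1 to 330.1 against 17.4 to 62.1 TPM, both without overlap, and their part was not tested. Each of these calls held in 3 of the 11 fits that left out 1 library, and neither held after centring on stromal markers. Hoxd8 was at 4.32 to 7.75 TPM in WT 12W HFD. Between WT 12W HFD and WT 1W HFD no member was called, where 5.93% of all genes were. An unadjusted p under 0.05 was found for 6 of 30 members and for 2838 of all genes. Hoxa5 was at -0.82 ± 0.26 (adjusted p = 0.05858) and Hoxc6 at -0.74 ± 0.26 (adjusted p = 0.09756), both with no overlap between the groups.

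At P12 the 2 libraries disagreed over much of the Hox set. Hoxa10 had 130.0 TPM in replicate 1 and 9.09 TPM in replicate 2, Hoxa11 14.9 and 0 TPM, Hoxa13 5.83 and 0 TPM and Hoxc10 18.1 and 2.38 TPM, all members of the tail end of the clusters. Several HoxC members were lower in replicate 1, with Hoxc4 at 10.2 and 70.9 TPM, Hoxc8 at 13.5 and 64.6 TPM and Hoxc5 at 0 and 18.5 TPM, whereas Hoxb7 was higher in it, at 20.0 and 8.36 TPM. Replicate 1 also had more endothelial marker RNA (560.4 against 268.4 TPM) and erythroid marker RNA (879.6 against 9.68 TPM) and less mesothelial (5.20 against 69.2 TPM) and adipocyte marker RNA (295.6 against 2539 TPM), while stromal markers summed to 32330 and 27200 TPM. The part of these cells was not tested.

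Between WT 3W and WT P12, 1 of 30 members was called, Hoxb9, where 1.63% of all genes were and 1% were lower. It had 1.73 and 1.78 TPM in the P12 libraries and was listed at 0 in 6 of 7 WT 3W libraries, with 0.13 TPM in the other (-1.44 ± 0.23, SE, adjusted p = 0.0006549). Hoxb9 reached 1 TPM in the 2 P12 libraries alone, so it was tested only through the group in which it is high and had to differ. The call, which held without either P12 library, is therefore no support for a difference of the Hox set. Endothelial markers summed to 268.4 to 560.4 TPM at P12 and 17.4 to 62.1 TPM in WT 3W, without overlap, and their part was not tested. Without replicate 2, P12 was the doubtful library alone, so no count of members is given for that fit. Hoxb9 reached 0.55 and 0.56 TPM in 2 WT 1W HFD libraries and 0.76 TPM in 1 KO 1W HFD library, and was listed at 0 in WT 12W HFD and WT 6M.

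No Hox gene was called between KO and WT. At 3W no gene of all 15659 was called (0%), 546 genes had an unadjusted p under 0.05, and no member did. Tcf21, lower in KO within every named pair, was thus not called by this fit either. The absence of Hox calls does not show KO and WT to be equal. Among the members, the lowest difference at 3W was that of Hoxb4, at -0.65, and the SE of the 30 members were 0.17 to 0.56. The median difference of the 30 members was -0.16 against 0.01 for all genes, and 24 of 30 were negative, against 47.2% of all genes. Hoxa7 had 40.8, 61.2, 48.5, 61.0 and 55 TPM in KO 3W, a difference of -0.49 ± 0.28 (SE, adjusted p = 1), and 4 of the 5 lay within the WT range, with the other below it. Hoxa5 had 22.1 to 32.7 TPM in KO 3W, inside the WT range of 18.7 to 48.9 TPM (-0.10 ± 0.23). WT 3W replicate 2, high in Hoxa7 and Hoxc4, is one of the 7 WT libraries, and the count was 0 without it as well.

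At 1W HFD 0.0255% of all genes and at 12W HFD 0.00639% of all genes were called between KO and WT, and no member in either. No member had an unadjusted p under 0.05 at 1W HFD (540 of all genes) or at 12W HFD (570 of all genes). Hox differences ran from -1.01 (Hoxa9) to 0.99 (Hoxa6) at 1W HFD and from -0.65 (Hoxb2) to 1.09 (Hoxd4) at 12W HFD, with 2 KO libraries at each stage.

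In the KO libraries taken alone, 12W HFD against 3W gave no called member where 5.15% of all genes were called. An unadjusted p under 0.05 was found for 4 of 30 members and for 2432 of all genes. Hoxa5 had 11.8 and 15.6 TPM in KO 12W HFD against 22.1 to 32.7 TPM in KO 3W, without overlap (-1.04 ± 0.32, adjusted p = 0.06022), and was called without KO 3W replicate 1. Hoxb5 was at -1.68 ± 0.68 and Hoxb7 at 0.72 ± 0.44. The difference between KO and WT in this change, tested as an interaction, was called for no member and for 0% of all genes. It was 0.23 ± 0.40 for Hoxa5 and -0.38 ± 0.53 for Hoxb7 (SE, adjusted p = 1). At an unadjusted p under 0.05 stood 1 member, Hoxd8 (1.24 ± 0.59), and 419 of all genes.

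Partners and regulators of the Hox genes were measured as lists. Of 9 TALE cofactors, all tested, 1 was called between WT 12W HFD and WT 3W, where 6.23% of all genes were lower. It was Meis1, which fell from 137 to 62.1 TPM (-1.11 ± 0.25, adjusted p = 0.002254), with no overlap between libraries. At 6M 2 of the 9 were lower than at 3W, Meis1 among them (36.3 TPM, -1.84 ± 0.34, adjusted p = 0.0006604), where 6.85% of all genes were lower. None of the 9 was called in the other comparisons. Of 24 Polycomb and Trithorax regulators, 4 were lower at 6M than at 3W and none higher, again beside 6.85% of all genes lower: Rnf2, a Polycomb ubiquitin ligase (41.6 to 17.1 TPM), Ezh2, the Polycomb H3K27 methyltransferase (18.3 to 5.24 TPM), Pcgf2, a Polycomb ring finger protein (10.04 to 1.5 TPM), and Kdm6b, a demethylase that removes the H3K27 mark (15.5 to 2.72 TPM). Ezh2 was also lower at 1W HFD than at 3W (6.70 TPM, adjusted p = 0.02945), 1 of 24 where 3.25% of all genes were lower. None of the 24 was called at 12W HFD against 3W. The groups compared here also differed in markers of other cells, as given above, and the part of these cells was not tested. Values after centring on stromal markers, which moved the median of all genes, are not given for the genes of these lists.

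Of 14 upstream inputs to the clusters, mainly of the retinoic acid pathway that switches on 3′ members in the embryo, 10 were tested and 3 rose from WT 3W to WT 12W HFD, Aldh1a2 and Aldh1a3 among them, where 7.94% of all genes were higher. The median difference of the 10 was -0.18, below that of all genes (-0.04), so the list as a whole did not rise. The marker differences between these groups given above apply here too. Aldh1a2, which makes retinoic acid, went from 3.97 to 33.4 TPM (3.12 ± 0.71, adjusted p = 0.002442), and Aldh1a3, of the same family, from 65.1 to 148.1 TPM (1.15 ± 0.25, adjusted p = 0.001774). Aldh1a2 also rose in KO (adjusted p = 0.0004537). These lists were drawn up with earlier results of the data known. Of 17 listed noncoding RNAs of the clusters, 0 matched the symbol of a measured gene, so their RNA levels were not tested.

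ATAC-seq, which marks DNA open to a transposase, showed the clusters as broad tracts of open chromatin. Peaks called by the submitters in each library covered 45.9% to 85.6% of the HoxA window, 30.6% to 62.2% of HoxC, 19.5% to 44.2% of HoxB and 17.4% to 37.5% of HoxD. The mean over all 25746 gene spans was 9.80% to 18.27%. HoxA was above HoxC and HoxC above HoxB in every one of the 9 libraries. The widest peak, in HoxA of KO 3W replicate 1, ran for 51.28 kb, and WT 3W replicate 1 had one of 29.16 kb. The total under peaks over the genome was 75.6 to 172.6 megabases per library, and the shares were not scaled for it. The HoxB window, at 173.9 kb, includes a long stretch without members.

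**Figure D4:**
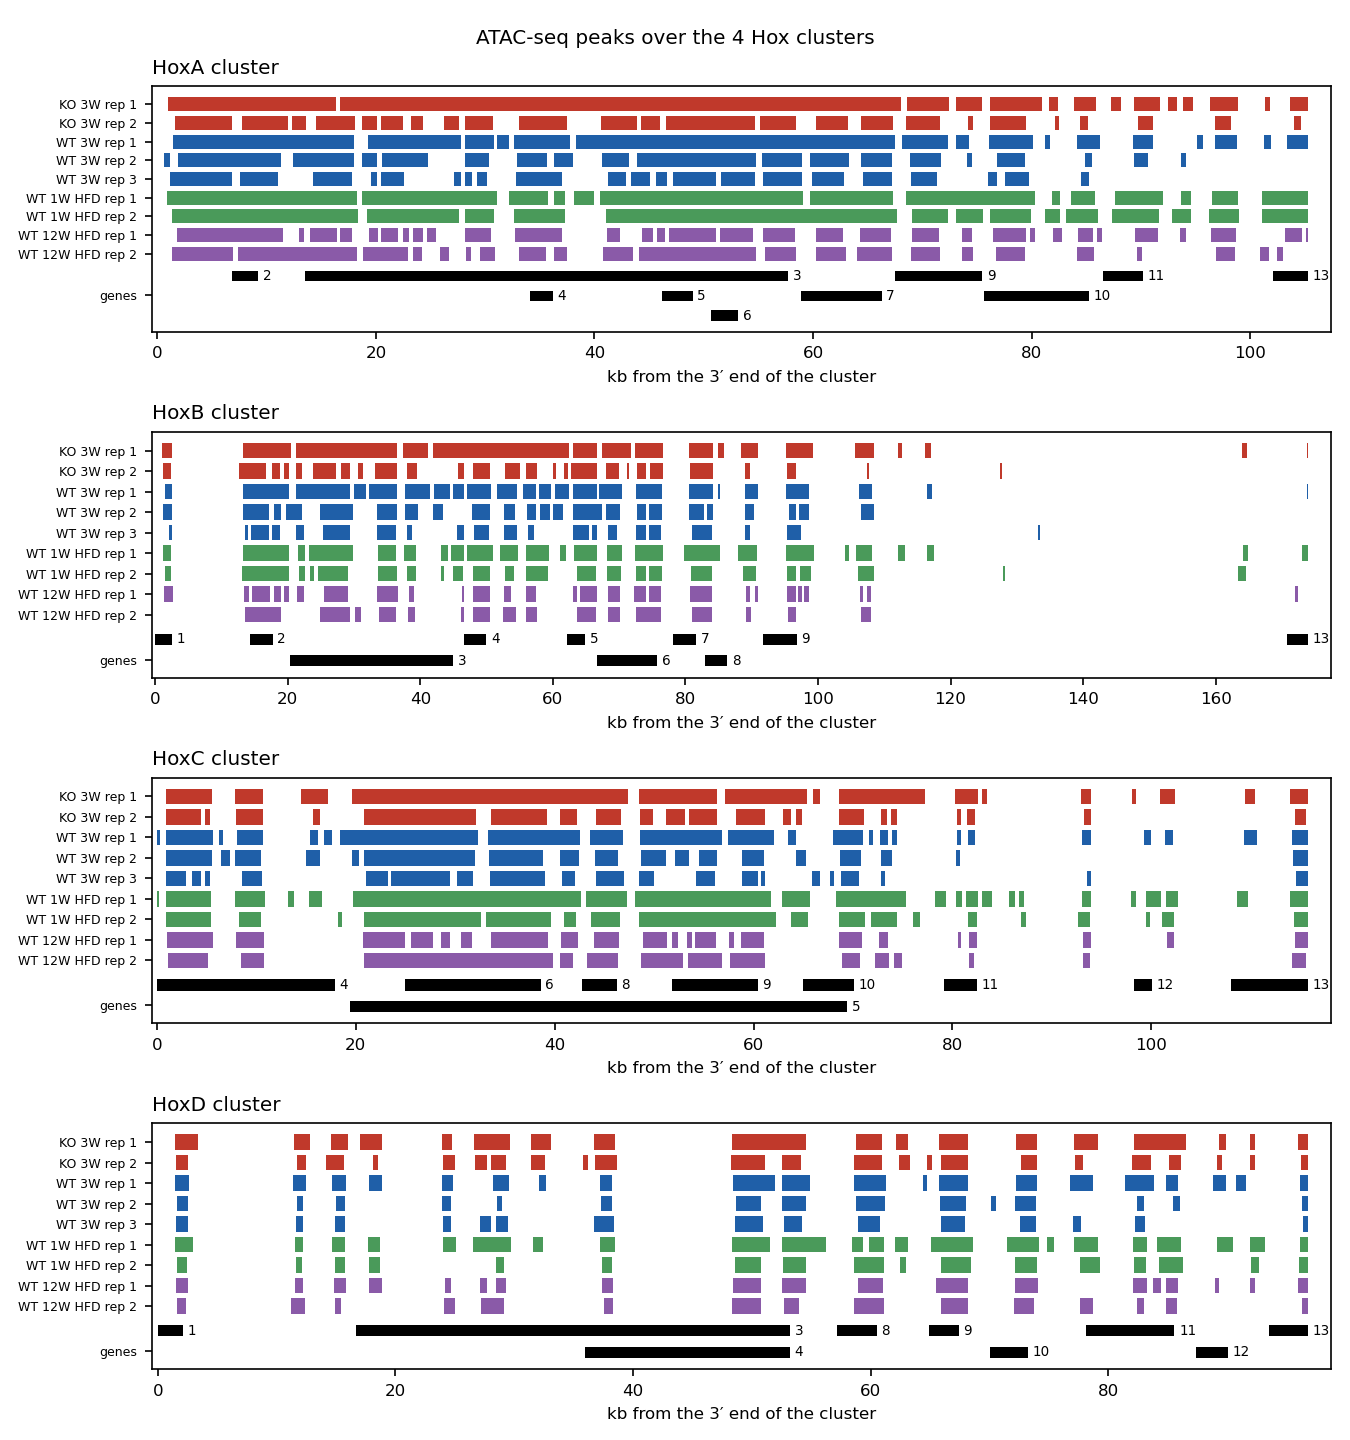
ATAC-seq peaks (coloured bars, 1 row per library, coloured by group) over the 4 Hox clusters, in kb from the 3′ end, with the spans of 38 of the 39 members in black and labelled by number. HoxA is open along most of its 3′ part (45.9% to 85.6% of the whole window under peaks), whereas the stretch of HoxB between numbers 9 and 13 is nearly empty.

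A peak overlapped the span of 32 of the 39 members in all 9 libraries, and 33 to 39 members per library (84.6% to 100%), against 61.0% to 66.6% of all genes. A peak within 1000 bases of the start was found for 76.9% to 100% of members and for 62.2% to 67.3% of 16742 promoters. Spans with 50% or more of their bases under peaks numbered 14 to 26 of 39 members, against 4.95% to 12.28% of all genes. Spans can share a peak: Hoxa3 covers Hoxa4, Hoxa5 and Hoxa6, Hoxc5 covers Hoxc6, Hoxc8 and Hoxc9 and overlaps Hoxc10, and Hoxd3 and Hoxd4 overlap. RNA reads in these shared stretches cannot be told apart by gene where the transcripts overlap, and the sources used here do not say if reads were counted by strand.

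Openness and RNA level went together across members, as a description of 39 genes that share clusters and peaks. The 9 members at 10 TPM or more had a median of 74.8% of their span under peaks, the 15 between 1 and 10 TPM 55.6%, and the 15 under 1 TPM 27.7%. All members at 1 TPM or more had a peak in all 9 libraries, and so did 8 of the 15 below. Hoxa5, Hoxa2, Hoxa4, Hoxa6 and Hoxb2 had a median of 100% of the span under peaks, although Hoxa4 averaged 1.27 TPM. Hoxc4 at 57.0 TPM was covered at 41.6%, with a span of 17919 bases, and Hoxb7 at 9.54 TPM at 27.9%. Hoxb1, listed at 0 TPM throughout, had a peak in 8 of 9 libraries and a median of 46.9%. Hoxb13 and Hoxc12, also at 0 TPM, had a peak in 4 each and a median of 0%.

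**Figure D5:**
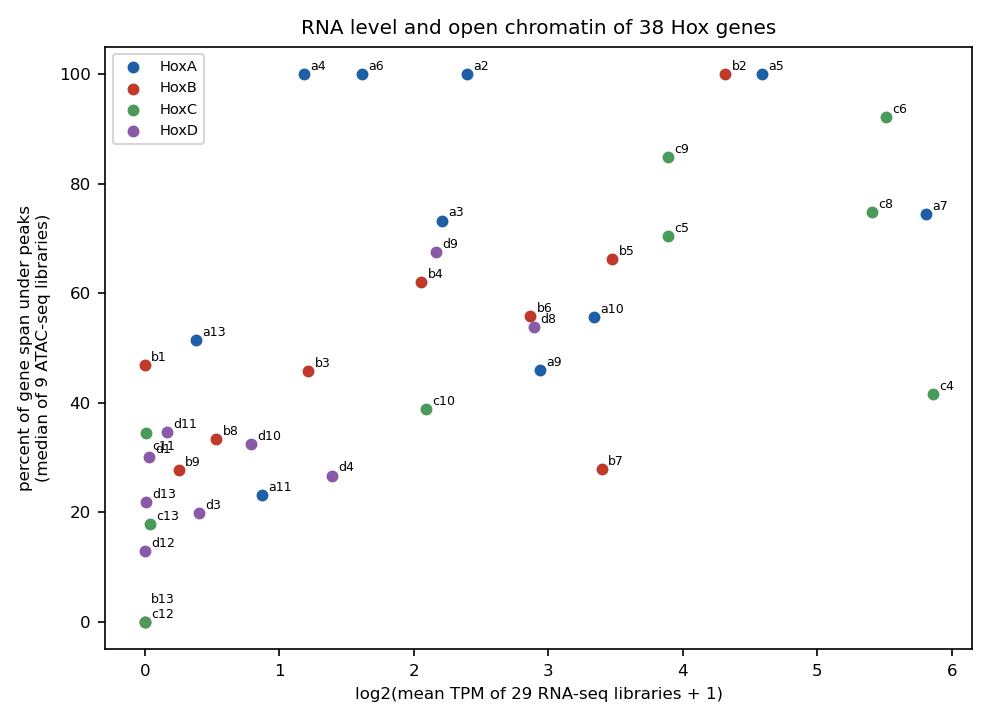
For 38 of the 39 Hox genes, the percent of the gene span under ATAC-seq peaks (median of 9 libraries) against log2 of the mean TPM of 29 RNA-seq libraries plus 1, coloured by cluster. Members under 1 TPM lie at 51.5% or less, and Hoxa2, Hoxa4, Hoxa5, Hoxa6 and Hoxb2 lie at 100%.

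Openness was compared between groups by value, since the smallest two-sided exact p is 0.2 for 2 libraries against 3 and 0.333 for 2 against 2. HoxA was covered at 84.2% and 81.8% in WT 1W HFD and at 56.7% and 58.3% in WT 12W HFD. These groups also differ in age, which cannot be told apart from the length of the diet. Of the 39 members, 14 (35.9%) had both 12W HFD libraries below both 1W HFD libraries and none the reverse, where 37.2% of genes with a peak did and 6.5% had the reverse, so the Hox share was near the background. Hoxa13 was at 98.9% and 100% in WT 1W HFD and at 56.0% and 17.7% in WT 12W HFD. The Hoxa5 span was at 100% in both 1W HFD libraries and at 89.4% and 100% in 12W HFD, and Hoxb7 at 50.7% and 22.7% against 27.9% and 19.6%.

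Between KO and WT at 3W, 4 members (10.3%; Hoxb5, Hoxc11, Hoxd3 and Hoxd4) were more open in both KO libraries than in all 3 WT libraries and none less open, against 24.5% and 0.472% of all genes with a peak. The peak names carry a letter, A or B, whose meaning the labels do not give, and it divides the 3W libraries. Among libraries with A, HoxA was covered at 85.6% in KO and 77.5% in WT. Among those with B it was covered at 57.8% in KO and 56.5% and 45.9% in WT. The titles also pair KO replicate 1 with WT replicate 1 and KO replicate 2 with WT replicate 3. Within both pairs the KO library had the higher share in all 4 clusters: HoxA 85.6% against 77.5% and 57.8% against 45.9%, HoxB 44.2% against 37.8% and 24.6% against 19.5%, HoxC 62.2% against 52.6% and 39.6% against 30.6%, and HoxD 36.7% against 30.6% and 27.9% against 18.4%. The total under peaks over the genome was also higher in KO in both pairs, at 146.4 against 111.9 megabases and 103 against 75.6 megabases, and its part was not tested. The span of Hoxb5 was covered at 79.1% and 83.7% in KO and at 76.6%, 68.2% and 66.2% in WT.

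The clusters also hold the genes of the miR-10 and miR-196 families, whose mature RNAs were not measured here. They are printed because their hairpins lie among the members, and members of a family share the seed, bases 2 to 8, in capitals. miR-10a-5p is made from chromosome 11 beside Hoxb4, miR-10b-5p from chromosome 2 inside the span of Hoxd4, miR-196a-5p from chromosomes 11 and 15 and miR-196b-5p from chromosome 6. The sequences are from RefSeq, GRCm38.p6.
miR-10a-5p: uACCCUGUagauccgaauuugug
miR-10b-5p: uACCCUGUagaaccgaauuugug
miR-196a-5p: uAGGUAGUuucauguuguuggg
miR-196b-5p: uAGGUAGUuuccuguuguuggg

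A peak lay over the Mir196b hairpin, inside the span of Hoxa9, in 7 of 9 libraries, the exceptions being WT 3W replicates 1 and 3. It lay over Mir196a-2 in 3 libraries, both KO 3W libraries and WT 1W HFD replicate 1, over Mir10a in KO 3W replicate 1, and over Mir10b and Mir196a-1 in none.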

How the data were processed

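The authors deposited gene-level TPM values for 29 RNA-seq libraries and a narrowPeak list for each of 9 ATAC-seq libraries. The submitters' processing notes name Trim Galore 0.6, FastQC, STAR 2.5.3a, RSEM, Bowtie2 2.3, MACS2 and the mm10 build, without saying which step used which setting. In the peak lists deposited by the authors, each peak has a score, a fold enrichment (a ratio) and -log10 p- and q-values. Peaks were listed per library.

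Groups were taken from the titles. TPM is not a count, so log2(TPM + 1) was fitted with limma 3.58.1 (R 4.3.3), with 8 group means, an intensity trend and 21 residual degrees of freedom. A gene was tested, two-sided, if it reached 1 TPM in 2 or more libraries, with Benjamini-Hochberg adjustment over all 15659 and a threshold of 0.05. The fit was tested on simulated data. No 2 libraries of a group held identical values (Pearson r of log2 values 0.926 to 0.979). The read depth of the TPM values and of the peak lists is unknown, so that no counting interval was given.

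Open chromatin was the share of an annotated gene span, or of the window from the first to the last member of a cluster, under any peak. Hox members named with values were those called in any comparison, the highest of each cluster, and the members on either side of the last mean of at least 1 TPM. Hoxa4, Hoxa6, Hoxa9, Hoxa13, Hoxb1, Hoxb4, Hoxb13, Hoxc5, Hoxc8, Hoxc9, Hoxc12, Hoxd1, Hoxd3, Hoxd4 and Hoxd12 were named beyond that rule, with their values seen. Values of 1 member and of 2 genes of the lists are not reported here. The members, lists and comparisons were chosen with earlier results of these data known. The alternatives were another pseudocount (0.1 TPM), no filter, a filter of 5 TPM, columns rescaled to an equal sum, quantile normalization, centring on stromal markers, only the compared groups, the replicate number as a block, and each library left out. For peaks they were a -log10 q of at least 5, an overlap rule, and promoters within 1000 bases. The overlap rule asked for at least 10% of the span or a large part of the peak itself. A peak inside a span thus passed however little of the span it covered. Sequences are from RefSeq, GRCm38.p6; in 1839 of 1839 overlapping windows on opposite strands they were reverse complements.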

Additional observations from a re-analysis of the deposited data

Results flagged for a closer look

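In groups of 4 to 10 libraries, the highest or lowest library was compared with the rest by its gap to the nearest of the others. Of 60 combinations of a named member and a group, 7 had a library far from the others. The cut-offs assume normally distributed values, which TPM with many zeros are not, so the count has no chance rate to be set against. Where all other libraries are at 0, any value above 0 is flagged, as for Hoxb9 and Hoxd10 below. In WT 3W, Hoxa7 was at 147.51 TPM and Hoxc4 at 150.63 TPM in replicate 2, the library with the highest summed Hox level, against at most 87.38 and 85.85 TPM in the other 6. In KO 3W replicate 2, its pair mate by the titles, Hoxa7 was at 61.18 TPM and Hoxc4 at 125.27 TPM. Hoxb9 was at 0.13 TPM in WT 3W replicate 3 and listed at 0 in the others. Hoxa11 was at 0.97 TPM in WT 12W HFD replicate 4 (others at most 0.26 TPM) and at 1.99 TPM in KO 3W replicate 4 (others at most 0.45 TPM). Hoxb8 was at 2.11 TPM in WT 1W HFD replicate 3 (others at most 0.09 TPM), and Hoxd10 at 0.03 TPM in WT 1W HFD replicate 2 (others listed at 0). Of these 7 values, 5 are of members with a mean under 1 TPM.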

How the results depend on the processing

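For WT 12W HFD against WT 3W, 6 Hox genes were called. The count was 1 after centring on stromal markers and 4 to 8 under the other settings. Leaving out 1 library gave 3 (without WT 12W HFD replicate 1) to 9 (without WT 3W replicate 1). Each of the 6 genes kept its direction in all of its 19 alternatives, of which Hoxb7 was called in 19, Hoxa5 and Hoxc6 in 18, Hoxa7 in 17, Hoxa2 in 13 and Hoxb5 in 11. For WT 1W HFD against WT 3W (2 called), the count was 1 with a pseudocount of 0.1 TPM and with quantile normalization, 0 with no filter, with centring and with the compared groups only, and 0 to 2 with 1 library left out. For WT 6M against WT 3W (2 called), it was 3 with no filter (1 higher, 2 lower), 1 with quantile normalization (a gene that was higher), 0 with centring and with the compared groups only, and 0 (without WT 6M replicate 2) to 4 (without WT 3W replicate 1) with 1 library left out. For WT 3W against WT P12 (1 called), it was 0 with a filter of 5 TPM, which removed Hoxb9, and 4 with centring. Counts with 1 library left out are not given for this comparison, since P12 could then be 1 library alone. For WT 12W HFD against WT 1W HFD (0 called), it was 1 with the compared groups only and 0 to 1 with 1 library left out. For KO 12W HFD against KO 3W (0 called), leaving out 1 library gave 0 to 1. Apart from the filter stated, the cause of these shifts was not tested. The share of all genes called in each alternative fit is not given, so these counts cannot be set against a background. Where leaving out a library left 1 in a group, that library was assumed to vary like the other groups. Centring moved the median log2 difference of all genes from -0.04 to -0.47 for WT 3W against WT P12, from -0.24 to 0.29 for WT 6M against WT 3W, from -0.05 to 0.36 for WT 12W HFD against WT 1W HFD, from 0.01 to -0.23 for KO against WT at 3W and for KO against WT at 12W HFD from -0.01 to -0.36. Of all called genes, those that were higher went with centring from 38.4% to 7.31% for WT 3W against WT P12, from 36.8% to 86.4% for WT 6M against WT 3W, from 59.7% to 90.1% for WT 12W HFD against WT 1W HFD, from 79.7% to 57.7% for WT 12W HFD against WT 6M and from 61.9% to 82% for KO 12W HFD against KO 3W. Quantile normalization gave 56.5% for WT 6M against WT 3W and 53.9% for WT 12W HFD against WT 6M. The 3 KO against WT counts and the interaction stayed at 0 in every fit run.

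With the replicate or pair number as a block, 0 Hox genes were called in each of the 3 KO against WT comparisons. The titles name pairs at 3W without saying what a pair shares. Same-pair correlations there were over 0.1 in 5 of 6 pairs (-0.131 to 0.482), short of every pair, and each of the 5 KO libraries correlated best with a WT library of its own pair, a hint from the data that these pairs share more than a number. At the HFD stages, where the titles name no pairs, same-number correlations were -0.185 to 0.077, and those samples share only a number. The 32 members with a peak in all 9 ATAC libraries became 30 at a -log10 q of at least 5 and 32 under the overlap rule. They became 28 for promoters, and 32 to 34 with 1 library left out. TPM values give no depth, so for members near 0 a low level and a missed one cannot be told apart.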
